A study of Arabidopsis thaliana and Oryza sativa and Cucumis sativus with 30 samples.

Results

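Tomato root hairs were measured as 3 sieved libraries of the cultivar Heinz 1706, out of 30 RNA sequencing libraries in a series on root hair cells of 6 plant species. The members were the 3 tomato columns of FPKM (fragments per kilobase of gene, scaled to the mapped fragments of the library), taken by their labels. Seedlings were grown on solid MS medium at 22 °C under constant light for 4 to 5 days, no transgene or treatment is given for them, and roots were stirred in liquid nitrogen and sieved, per the labels. The design text calls the 3 libraries of each group biological replicates. They were compared with the sieved hairs of Arabidopsis (variety Columbia), cucumber (Gy14), soybean (Williams 82), rice (Japonica) and maize (B73), 3 libraries each, of the same age and grown and collected in the same way. The tomato table lists 12970 gene ids, all with a mean FPKM of 3 or more.

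Root hairs are tubular outgrowths of single epidermal cells that lengthen only at the tip. They enlarge the surface through which a root takes up water and mineral nutrients such as phosphate, and their growth depends on wall-loosening and wall-building proteins, on secretion directed to the tip and on an actin cytoskeleton. Tomato forms hairs on most of its root epidermis in a pattern less strictly tied to cell position than in Arabidopsis. A tomato id names the chromosome, the place in the order of gene models along it and, after the point, the version of the model, and no gene names for these ids were used here. Versions are called version 1 and version 2 below. Roles of the genes below are therefore not given, the label was not checked against hair markers, and transcripts of other root cells carried through the sieve were not measured apart. In such bulk samples fewer cells of a type and less RNA per cell cannot be told apart.

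The 3 libraries ranked genes alike, and library 1 was the least like the others. Spearman's rank correlation was 0.857 between libraries 1 and 2, 0.886 between libraries 1 and 3 and 0.913 between libraries 2 and 3. Across the listed ids, Pearson's r on log2(FPKM + 1) was 0.891 between libraries 1 and 2, 0.907 between libraries 1 and 3 and 0.936 between libraries 2 and 3, and ids are not independent replicates. Library 1 listed 40 ids at 0, library 2 listed 6 and library 3 listed 22. Ids below an FPKM of 1 numbered 282, 25 and 61 in the same order. Absolute depth is unknown, but genes read by the same number of fragments in a pair of libraries share 1 ratio of FPKM, set by depth. The commonest ratio was 0.911 for library 1 over library 2 (40 loci, 24 at the next ratio) and 0.806 for library 1 over library 3 (44 loci, 27 at the next), which would put library 2 at 91.1% and library 3 at 80.6% of the depth of library 1. By this estimate the library with the most ids below 1 was the most deeply read. Library medians were 13.8, 17.0 and 14.6 FPKM, and the listed FPKM summed to 923635, 947511 and 1067680 in libraries 1, 2 and 3. The share of all ids highest or lowest in each library was not computed. Counts of neighbours highest or lowest in the same library, given below, therefore describe only the genes named.

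A small number of genes held much of the hair transcriptome. The highest gene alone held 2.32%, 2.48% and 2.61% of the listed FPKM in libraries 1, 2 and 3. The 10 highest genes held 9.90%, 8.89% and 9.58% (9.46% ± 0.513, SD, n = 3), and the 100 highest held 34.3%, 30.9% and 35.2%. The 293 genes of highest mean, 2.26% of the listed ids, made up 50% of the summed FPKM, and 4226 genes made up 90%. At a mean of 1000 or more stood 152 ids with 40.1% of the FPKM, while the 4817 ids between 3 and 10 held 2.87%. At the lower edge of the table stood Solyc02g032100.2, with 0.722, 6.44 and 1.84 FPKM and a mean of 3.00.

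Solyc10g074860.1 was the most abundant transcript in every library, at 21389, 23470 and 27899 FPKM in libraries 1, 2 and 3 (mean 24253 ± 3325, SD, n = 3). Its lowest library stood above the highest library of every other gene. The next gene, Solyc04g071100.1, read 11318, 11755 and 9822 FPKM. The next by mean, Solyc04g074730.1, read 8491, 8097 and 14325 FPKM, so its range enclosed that of Solyc04g071100.1 and the order of these neighbours in rank is within their spread. Solyc05g006190.1 read 8086, 6759 and 9728 FPKM, which overlaps the range of Solyc04g074730.1. Solyc08g045710.1 was even over the libraries, with 8071, 7269 and 7163 FPKM. The order from the fourth to the seventh gene is likewise within the spread of the libraries, since Solyc03g082790.2 read 8173, 7610 and 6239 FPKM.

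Solyc12g098260.1, the seventh gene, was the least even of the 20 highest, at 7672, 2815 and 11298 FPKM. Its level in library 2 was the lowest of the 3 and stood 4.01-fold below that in library 3. Solyc01g005850.1 (6501, 5529 and 5734 FPKM), Solyc10g084190.1 (6393, 6033 and 5040 FPKM) and Solyc12g100080.1 (5315, 4935 and 5075 FPKM) completed the 10 highest. Solyc12g100080.1 differed by 1.08-fold between its highest and lowest library, the narrowest spread of the 20.

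Genes 11 to 20 had means from 5081 down to 3828 FPKM, and their libraries overlapped one another. Solyc09g075410.2 (mean 5081 ± 1089), Solyc12g044710.1 (4445 ± 548), Solyc05g014470.2 (4444 ± 252), Solyc04g071090.2 (4404 ± 473), Solyc12g055860.1 (4329 ± 1083) and Solyc10g081510.1 (4302 ± 565) differed by at most 1.53-fold over the libraries. Solyc10g080370.1 was high in library 3, with 2777, 3135 and 7764 FPKM. Solyc08g065850.1 read 2364, 3350 and 5770 FPKM, also highest in library 3. Both unplaced genes of the 20, Solyc00g323130.2 (5827, 3417 and 2659 FPKM) and Solyc00g240580.1 (5251, 2540 and 4019 FPKM), were highest in library 1.

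**Figure D1:**
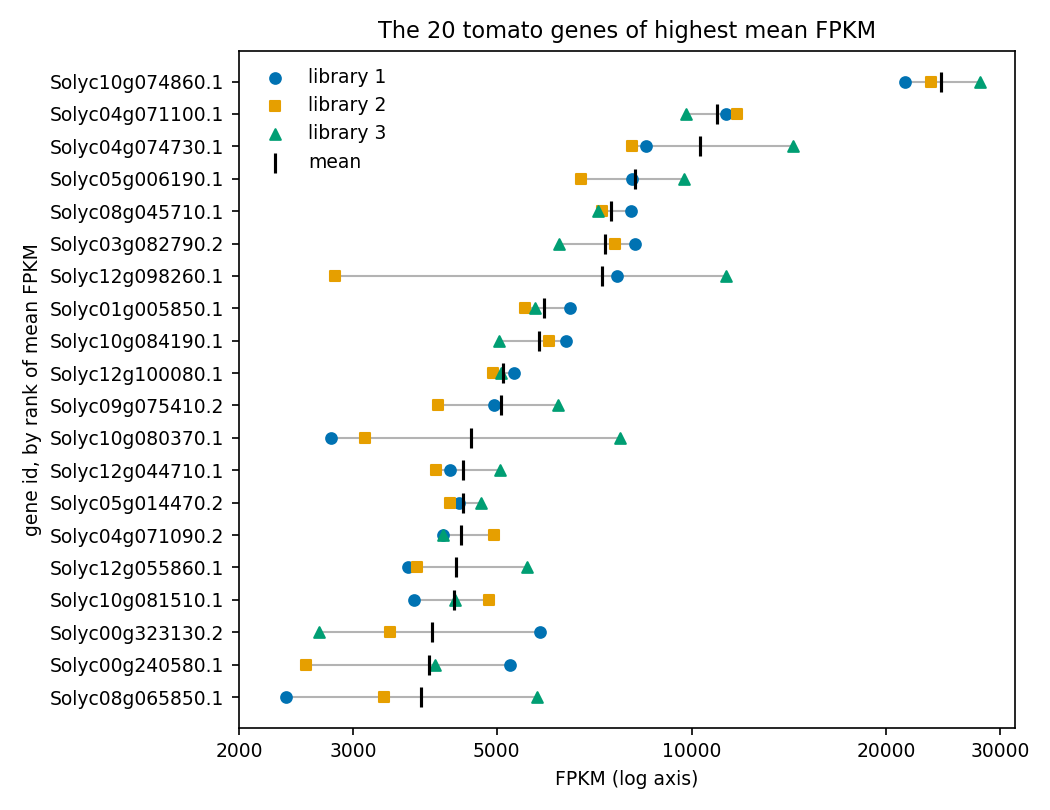
FPKM (log axis) of the 20 tomato genes of highest mean, with 1 marker per library, a black tick at the mean and a grey line over the range of the 3 libraries. Solyc10g074860.1 stands apart at 21389 to 27899 FPKM, and Solyc12g098260.1 spans 2815 to 11298 FPKM.

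The share of FPKM in the highest genes was set beside that of the other sieved hairs, which asks whether the tomato hair transcriptome is concentrated to the same degree. Tomato held 9.46% ± 0.513 in its 10 highest genes, against 12.04% ± 0.931 in Arabidopsis, 9.32% ± 1.08 in cucumber, 8.59% ± 0.689 in maize, 10.8% ± 2.09 in rice and 18.0% ± 6.38 in soybean (SD, n = 3 each). Tomato libraries did not overlap those of Arabidopsis or soybean, both of which were higher. In exact two-sided permutation tests of 3 against 3 libraries both gave p = 0.1, the smallest the design allows, and an adjusted p = 0.25 over 5 species, so no comparison could pass 0.05. Exact permutation p for cucumber, maize and rice was 0.9, 0.2 and 0.4. With the 100 highest genes the difference from Arabidopsis turned round, with 33.5% ± 2.24 in tomato and 24.4% ± 2.38 in Arabidopsis (exact permutation p = 0.1, adjusted p = 0.167). Libraries of a species correlated at r of 0.372 to 0.651 in Arabidopsis and 0.645 to 0.809 in soybean, lower than in tomato, and the part of this in the differences was not tested. Species, annotation and library cannot be told apart in these comparisons.

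**Figure D2:**
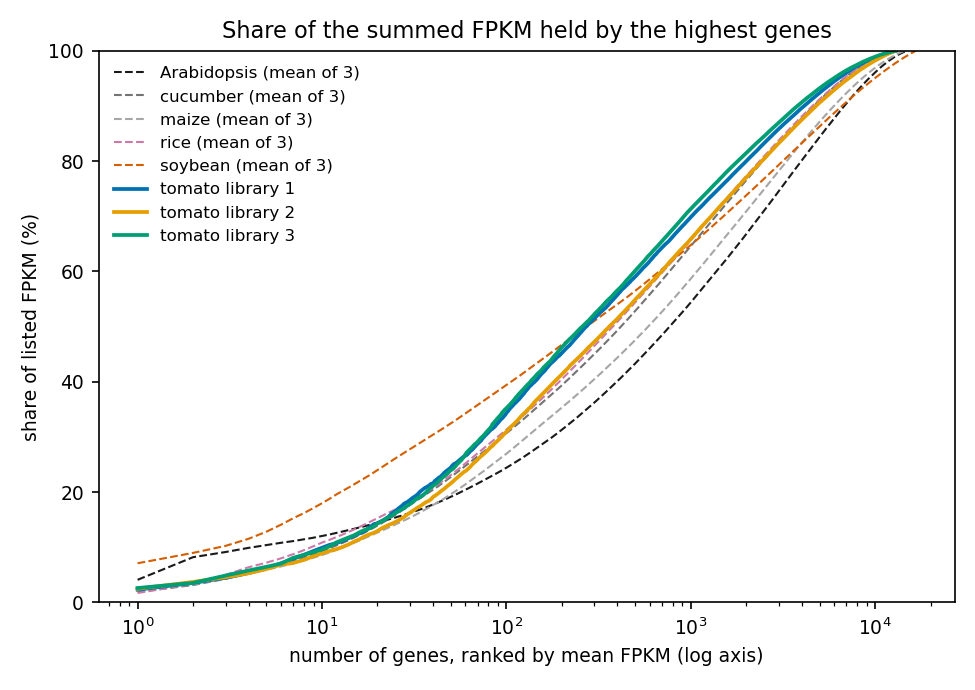
Share of the listed FPKM (%) held by the highest genes against their number (log axis), ranked by mean FPKM, as 1 line for each tomato library and a dashed line for the mean of 3 libraries of each other species. Tomato libraries hold 8.89% to 9.90% in 10 genes and 30.9% to 35.2% in 100 genes, and the Arabidopsis line is above them at 10 genes and below them at 100.

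Abundant tomato genes were not spread evenly over the chromosomes. Chromosome 12 held 941 listed ids, 7.26% of the table, and 13.4%, 13.5% and 14.7% of the FPKM in libraries 1, 2 and 3. It supplied 27 of the 100 highest genes. Chromosome 10 held 6.98% of the ids and 11.2%, 11.5% and 12.2% of the FPKM, with 15 of the 100 highest genes, and Solyc10g074860.1 alone made up 21.3% of that chromosome's FPKM. In chromosome 3, in contrast, 10.2% of the ids held 7.24%, 7.25% and 6.46% of the FPKM, with 3 of the 100 highest genes. Without the 100 highest genes, chromosome 12 held 8.76% and chromosome 10 held 7.61% of the remaining FPKM, nearer to their shares of ids. Genes at a mean of 100 or more were 15.6% of the listed ids of chromosome 12 and 14.6% of those of chromosome 10, against 11.4% over all listed ids and 8.39% on chromosome 5. The 93 ids on unplaced sequence, written as chromosome 0, held 2.66%, 1.72% and 1.64% of the FPKM. They included 4 of the 100 highest genes, each highest in library 1. Besides Solyc00g323130.2 and Solyc00g240580.1 these were Solyc00g026160.2 (4484, 2241 and 2141 FPKM) and Solyc00g020840.2 (4216, 2162 and 2063). The higher share in library 1 came from these 4 genes and was not shared by the other unplaced ids.

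**Figure D3:**
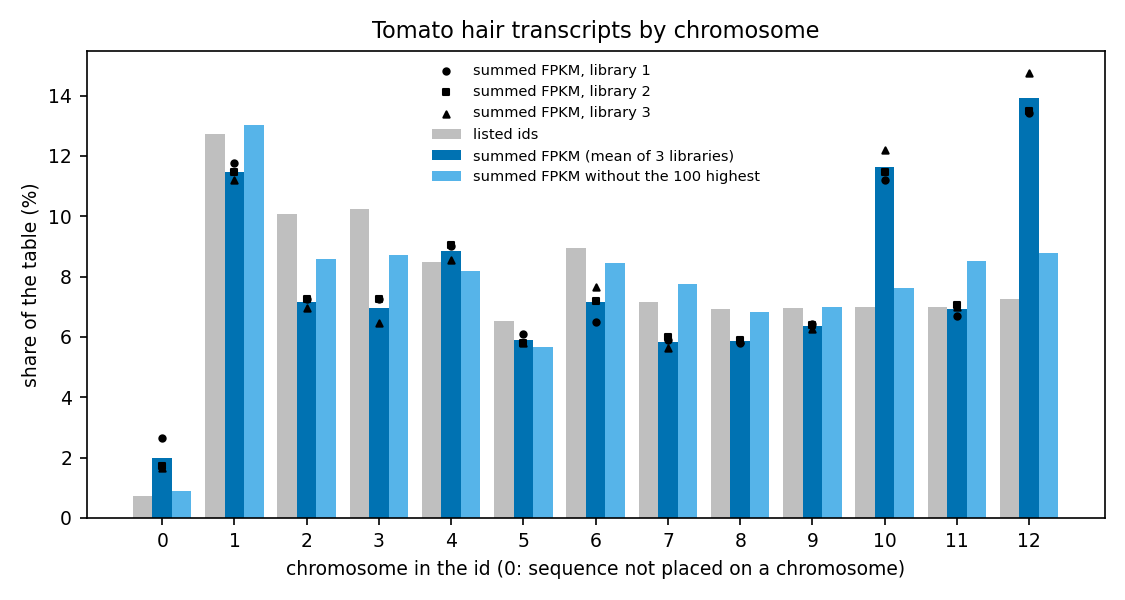
Share of the tomato table (%) by the chromosome named in the id, as bars for listed ids, for summed FPKM (mean of 3 libraries, black markers for single libraries) and for summed FPKM without the 100 highest genes. Chromosomes 12 and 10 hold 13.9% and 11.6% of the FPKM with 7.26% and 6.98% of the ids, and 8.76% and 7.61% without the 100 highest.

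The version digit of the id differed between chromosomes and, at the top of the range, with level. Ids of version 1 were 33.5% of all listed ids, but 15 of the 20 highest and 69 of the 100 highest genes, and they held 48.9%, 49.4% and 52.7% of the FPKM in libraries 1, 2 and 3. Nearly all listed ids of chromosomes 11 (99.3%) and 12 (99.6%) were of version 1, while chromosome 1 had 3.88% and chromosomes 0 to 9 together 17.7%. On chromosome 10 the digit changed along the chromosome, with version 1 in 17.5% of the 228 ids numbered below 15000 and in 99.4% of the 656 numbered 20000 or more, limits chosen after the digits were seen. Chromosome 11, nearly all of version 1, held 6.99% of the ids and 6.92% of the FPKM. Within chromosomes 0 to 9 the version 1 ids were 36.0% of those at 1000 FPKM or more, against 18.2% of those between 3 and 10 and 16.3% of those between 10 and 100. Median levels there were nearly equal, at 15.3 FPKM for version 1 and 15.1 FPKM for version 2. Model lengths, by which FPKM is divided, were not used here, so the part of the model version in these levels was not tested.

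A set of ids carried identical values, and these cannot be taken as separate measurements. Whether each tie is a single shared estimate was not tested. All 3 values were shared with another id of the same chromosome by 386 ids (2.98%), which formed 175 loci, of which 168 were pairs. In 168 of the 175 loci the first and last id lay at most 20 id numbers apart. The largest locus joined 30 ids of chromosome 1, from Solyc01g110700.2 to Solyc01g111180.2, at 149, 243 and 240 FPKM in libraries 1, 2 and 3. The highest pair was Solyc07g056470.2 and Solyc07g056480.2, both at 1582, 849 and 1051 FPKM. Counting each locus once leaves 12759 loci. The values repeated by these ids make up 1.57% of the summed FPKM. A pair on different chromosomes, Solyc01g088340.1 and Solyc10g046850.1, also shared 5.60, 6.15 and 0 FPKM and was not counted among them.

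Most listed ids had a listed neighbour in id order, also with merged loci counted once (71.8%). The share to be met if ids were listed at random was not computed, so clustering of listed genes was not tested. Id numbers rise in steps of 10, and 9501 of the 12970 ids (73.3%) had a listed neighbour at a step of 10, in 3101 runs, of which 1567 had 3 or more ids and 19 had 10 or more. The longest run joined 15 ids on chromosome 1, from Solyc01g099670.2 to Solyc01g099810.2, but only 12 loci, with means from 5.27 to 281 FPKM and Solyc01g099770.2 as the highest (185, 256 and 402 FPKM). The median over its 15 ids, with merged ids counted singly, was 43.4 FPKM, above the library medians of 13.8, 17.0 and 14.6. Whether the neighbours below are copies of one gene was not tested, and reads shared between alike neighbours are uncertain.

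The highest summed level was carried by 5 runs of neighbours, a pair of them on chromosome 12. In the run of 13 ids from Solyc12g098210.1 to Solyc12g098330.1, 6 genes stood at a mean of 1000 or more. Besides Solyc12g098260.1 these were Solyc12g098290.1 (2206, 2257 and 4314 FPKM), Solyc12g098300.1 (2105, 2588 and 3024), Solyc12g098240.1 (1779, 2103 and 3324), Solyc12g098250.1 (2119, 1846 and 2619) and Solyc12g098270.1 (1530, 1763 and 2318). All 6 were highest in library 3, which also had the highest summed FPKM. Solyc12g098260.1 alone among them spanned more than 4-fold. Between them lay Solyc12g098280.1, at 49.6, 72.4 and 59.9 FPKM, and the lowest members of the run, Solyc12g098220.1 and Solyc12g098310.1, had means of 5.62 and 3.99. Its end members, Solyc12g098210.1 and Solyc12g098330.1, had means of 66.8 and 47.6. High and low genes lay side by side within this run.

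The second chromosome 12 run, from Solyc12g100040.1 to Solyc12g100140.1, held a block of 4 adjacent high genes among 11. Solyc12g100080.1 was followed by Solyc12g100090.1 (3357, 3131 and 3750 FPKM), Solyc12g100100.1 (2425, 2515 and 2415) and Solyc12g100110.1 (2243, 2161 and 2697). All 4 were even over the libraries, with a widest range of 1.25-fold. The 7 others of the run had means from 4.80 to 78.9 FPKM.

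On chromosome 4, all 4 ids from Solyc04g071070.2 to Solyc04g071100.1 stood above 100 FPKM in every library. Solyc04g071070.2 read 1530, 1775 and 1479 FPKM, Solyc04g071080.1 read 109, 124 and 120, and Solyc04g071090.2 read 4128, 4950 and 4134, next to Solyc04g071100.1. Each member spanned at most 1.20-fold over the libraries. Means within the run went from 117 to 10965 FPKM, so members differed far more than libraries did.

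In the other 2 runs a single gene made the total. Solyc10g074860.1 made up 99.8% of its run of 4, whose next gene, Solyc10g074870.1, read 13.3, 40.7 and 58.1 FPKM. Solyc04g074730.1 made up 98.9% of a run of 3 with Solyc04g074720.2 (17.9, 14.2 and 11.9 FPKM) and Solyc04g074740.2. Solyc04g074740.2 read 8.77, 204 and 91.2 FPKM and was low in library 1, while Solyc04g074730.1 beside it was high in library 3. In the run of Solyc10g074860.1 all 4 genes were lowest in library 1, the library of lowest summed FPKM.

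With merged loci counted once, 8 stretches of 4 or 5 adjacent genes had every mean at 100 FPKM or more, and 5 of the 8 lay on chromosome 12. Apart from those described, Solyc12g049140.1 to Solyc12g049180.1 were the most even, with Solyc12g049150.1 (3043, 2804 and 2979 FPKM), Solyc12g049140.1 (2287, 2021 and 2402), Solyc12g049170.1 (1890, 1855 and 1975) and Solyc12g049160.1 (1942, 1796 and 1859) next to Solyc12g049180.1 (208, 184 and 186). No member of this stretch spanned more than 1.19-fold over the libraries. From Solyc12g098760.1 to Solyc12g098800.1 the libraries differed more, and all 5 genes were lowest in library 1, the library of lowest summed FPKM. Solyc12g098790.1 read 3293, 4366 and 3682 FPKM, Solyc12g098770.1 read 1208, 1726 and 3886, and Solyc12g098800.1 read 798, 1433 and 1889. Solyc12g098760.1 (296, 460 and 557 FPKM) and Solyc12g098780.1 (101, 163 and 273) were the lower members. In Solyc12g007240.1 to Solyc12g007270.1, Solyc12g007250.1 (1493, 1296 and 1724 FPKM) and Solyc12g007270.1 (1319, 1358 and 1723) led. The remaining stretches lay on chromosome 10 (Solyc10g081160.1 to Solyc10g081190.1, means of 101 to 1332) and chromosome 2 (Solyc02g089720.1 to Solyc02g089750.2, means of 133 to 248).

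**Figure D4:**
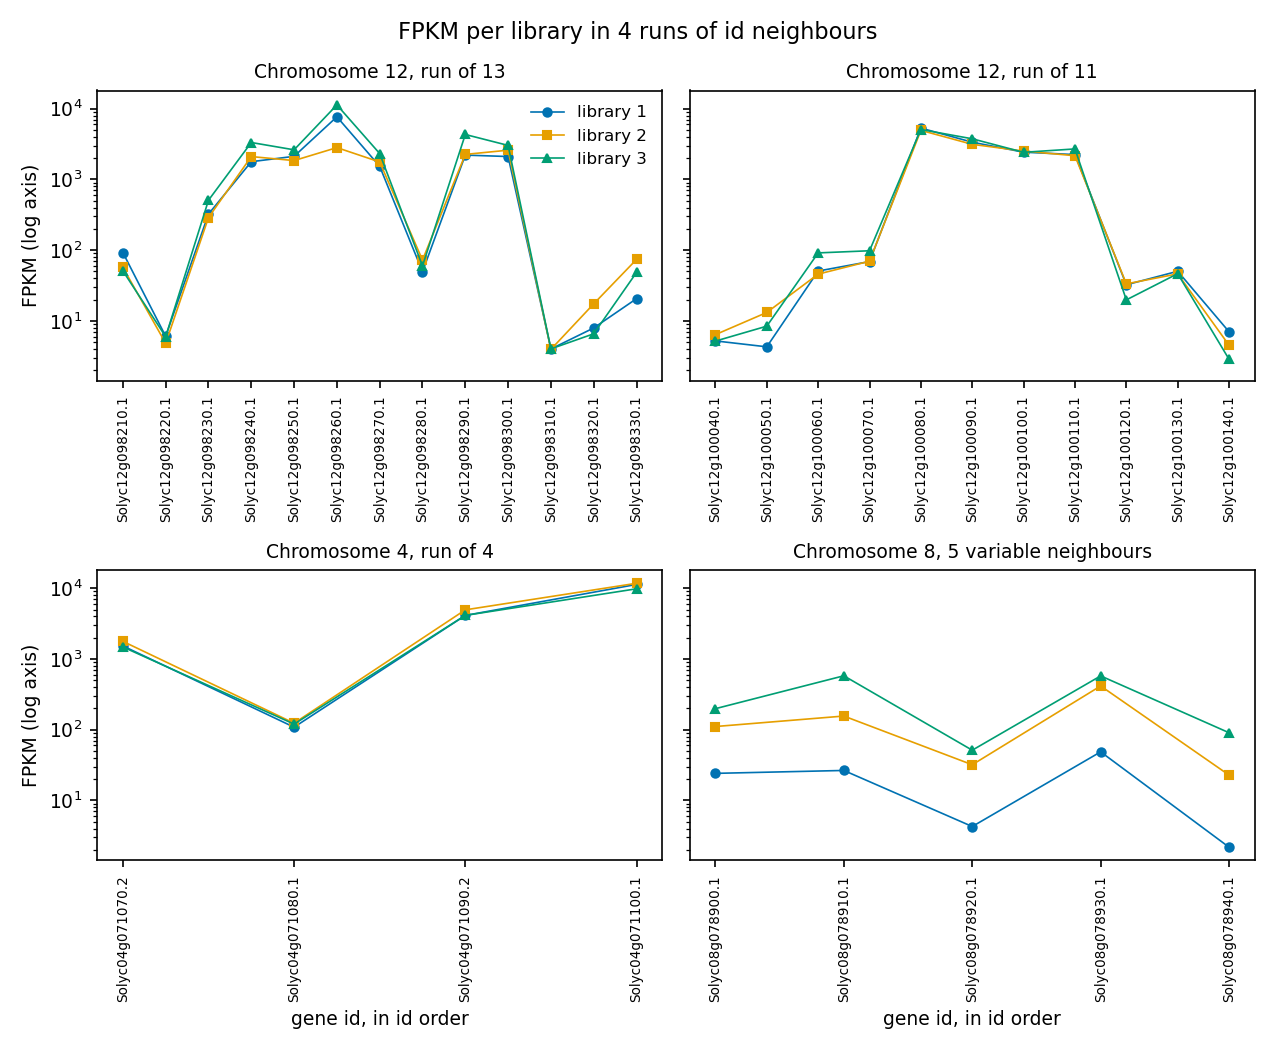
FPKM per library (log axis) in 4 runs of id neighbours, with gene ids in id order on the horizontal axis and 1 line per library. On chromosome 12, blocks of genes above 1000 FPKM stand beside genes below 100, all 4 genes of the chromosome 4 run keep within 1.20-fold over the libraries, and the 5 chromosome 8 genes are all lowest in library 1.

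High genes had high neighbours more often than listed genes in general were high. A mean of 100 FPKM or more was reached by 11.2% of the 12759 loci, and by 22.5% of the loci at a step of 10 from such a locus. That share was 14.6% at a distance of 20 id numbers, 12.8% at 100 and 9.99% at 1000. Without chromosomes 10 and 12 it was 18.7%, against 10.5% of those loci. At 1000 FPKM or more, 1.18% of loci but 19.1% of step-10 partners were so high, which rests on 17 pairs. Most of these pairs lay on chromosome 12, in the runs and stretches described above. The share at 1000 FPKM or more was not computed without chromosomes 10 and 12. At distances of 20, 50, 100 and 500 the share was 14.2%, 5.84%, 4.8% and 7.69%, from 12, 4, 3 and 4 pairs, all above that of all loci, and at 1000 no pair was so high. For all neighbours the tie was weak, with a median absolute difference in mean log2(FPKM + 1) of 1.45 over 6400 pairs as listed and of 1.502 over 6109 pairs with merged loci once. At distances of 20, 50, 100, 500 and 1000 the difference was 1.58, 1.62, 1.61, 1.66 and 1.54. The correlation of mean log2 levels was 0.14 at a step of 10 and 0.03 at 1000, over pairs that share libraries and genes, and no test was run on these shares.

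**Figure D5:**
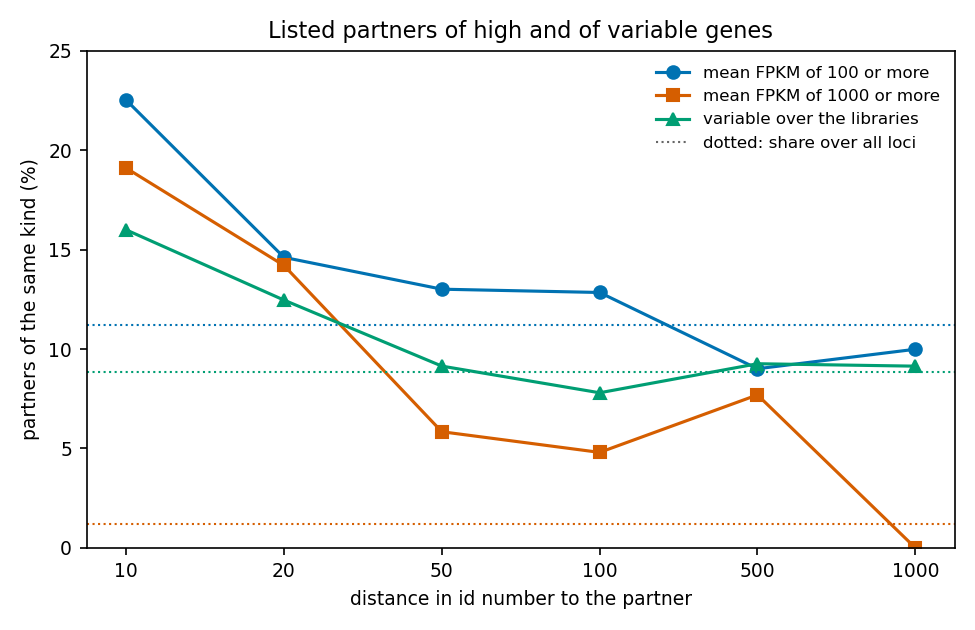
Share of listed partners (%) that are of the same kind as a given locus, by distance in id number, for loci at a mean FPKM of 100 or more, at 1000 or more, and variable over the 3 libraries, with dotted lines at the share of each kind over all loci. At a step of 10 the shares are 22.5%, 19.1% and 16.0%, against 11.2%, 1.18% and 8.82% over all loci.

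Between steady and variable lay most genes. The range of log2(FPKM + 1) from lowest to highest library had a median of 0.59, a 1.51-fold spread. A gene was called steady at a range of 0.25 or less (1.19-fold) and variable at 2 or more (4-fold), and 1959 ids (15.1%) were steady, 1132 (8.73%) variable and 9879 (76.2%) between these limits. Of the 100 highest genes 18 were steady, a share near that of all ids, and 4 were variable. Variable ids made up 10.8% of those with a mean between 3 and 10 and 3.95% of those at 1000 or more. Without library 1 the variable ids numbered 289, without library 2 they numbered 485 and without library 3 they numbered 809, where a range over 2 libraries is narrower by construction. The share of variable ids was 49.2% in Arabidopsis, 21.2% in soybean, 6.05% in cucumber, 5.72% in rice and 3.13% in maize, given as a description with no test.

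The 10 steadiest genes at a mean of 100 FPKM or more had means from 106 to 2452 FPKM. Solyc11g067300.1 read 254, 258 and 255 FPKM, a 1.02-fold spread. Solyc07g044710.1 read 938, 926 and 919 FPKM. Solyc04g007550.2 (468, 475 and 480 FPKM), Solyc08g081730.2 (591, 600 and 606), Solyc01g094770.2 (120, 119 and 122), Solyc03g082660.2 (327, 337 and 328), Solyc01g112250.2 (108, 105 and 104), Solyc12g099100.1 (226, 223 and 217) and Solyc07g022830.2 (316, 303 and 303) followed. All of them kept within 1.04-fold. Solyc12g100100.1, at 2425, 2515 and 2415 FPKM, was the most abundant of these 10 and belongs to the chromosome 12 block above.

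Library 1 was often the one apart. Each variable id was assigned to the library, highest or lowest, that lay further from the middle one on the log2 scale, which need not be far from both others. Of the 1132 variable ids, 514 were so assigned as low in library 1 and 367 as high in library 2, while 120 were high and 72 low in library 3, 51 were high in library 1 and 8 were low in library 2. With median-of-ratios factors the first 2 counts were 463 and 271 of 1006, and with equal library totals they were 420 and 439 of 1127, so which of them leads depends on the scaling. On chromosomes 0 to 9 the version 1 ids were variable in 15.0% of cases, against 7.18% of version 2 ids. Where nearly all ids were of version 1, the share was nearer the 8.73% of all listed ids. It was 9.05% on chromosome 11, 10.2% on chromosome 12 and 9.60% on chromosome 10 from id number 20000.

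Among variable genes of high level, low values in library 1 and high values in library 3 recurred. Over all 1132 variable ids these assignments made up 45.4% and 10.6%, and whether high genes differ from them was not tested. Solyc12g099330.1 read 921, 3945 and 3647 FPKM and was low in library 1. Solyc10g080360.1 read 1017, 1157 and 4702 FPKM, high in library 3 as its id neighbour Solyc10g080370.1 was. Solyc10g078580.1 was high in library 3 as well, with 622, 1088 and 3787 FPKM. Library 1 was the low one for Solyc11g010390.1 (300, 1327 and 1845 FPKM), Solyc07g052510.2 (345, 1789 and 1078), Solyc08g008050.2 (245, 826 and 1249) and Solyc10g055630.1 (165, 668 and 1437). Solyc03g096420.1 went the other way, with 998, 363 and 194 FPKM, and Solyc00g072400.2 was high in library 2, with 199, 953 and 404.

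The widest ranges at a mean of 100 FPKM or more were led by Solyc07g061810.1, listed at 0 in library 1 and at 265 and 37.4 FPKM in libraries 2 and 3. An exact 0 can be a failed estimate, so no fold is given for it. Solyc08g079200.1 read 8.60, 27.6 and 453 FPKM, a 52.6-fold spread. Solyc09g091210.2 read 5.87, 264 and 51.2 FPKM, and Solyc09g010200.2 read 14.2, 271 and 88.4, both highest in library 2. Solyc11g012320.1 (25.9, 256 and 565 FPKM), Solyc08g005960.1 (29.5, 189 and 579), Solyc09g056390.1 (42.2, 194 and 803) and Solyc07g017880.2 (21.7, 31.4 and 454) were highest in library 3, and Solyc08g078910.1 and Solyc04g074740.2 completed these 10. Of the 68 ids at 0 in a library, 60 were of version 1, against 33.5% of all listed ids. A mean of 10 or more was reached by 20 of the 68, 9 of them at 0 in library 1, 4 in library 2 and 7 in library 3. After Solyc07g061810.1 the highest of these were Solyc01g066630.1 (64.6, 106 and 0 FPKM), Solyc09g018640.1 (96.5, 52.9 and 0) and Solyc12g049620.1 (90.5, 33.1 and 0). The other 16 had means from 10.2 to 27.3 FPKM. Library 1 was at 0 for Solyc02g078870.1, Solyc12g007080.1, Solyc09g056210.1, Solyc03g005360.1, Solyc05g024310.1, Solyc02g094050.2, Solyc12g089380.1 and Solyc10g086520.1. Library 2 was at 0 for Solyc12g049470.1, Solyc08g075560.1, Solyc03g090990.1 and Solyc04g009480.1, and library 3 for Solyc10g049920.1, Solyc05g041130.1, Solyc01g007510.1 and Solyc09g018770.1.

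Variable genes also lay beside one another, most clearly on chromosome 8. All 5 ids from Solyc08g078900.1 to Solyc08g078940.1 were variable and lowest in library 1. Solyc08g078930.1 read 48.7, 416 and 576 FPKM, and Solyc08g078910.1 read 26.6, 156 and 579. Solyc08g078900.1 (24.2, 111 and 198 FPKM), Solyc08g078940.1 (2.18, 22.8 and 90.7) and Solyc08g078920.1 (4.28, 32.0 and 51.3) ran in the same direction, all highest in library 3. A second stretch of 4, from Solyc04g074420.1 (9.01, 24.4 and 129 FPKM) to Solyc04g074450.1 (0.406, 1.78 and 16.3), was also highest in library 3. Shorter stretches were not all alike. From Solyc03g090990.1 to Solyc03g091010.1 (means of 9.71 to 11.3 FPKM) all were assigned as high in library 3. From Solyc11g073020.1 to Solyc11g073040.1 (means of 3.46 to 4.90 FPKM) the assignments differed. Those from Solyc07g065090.1 to Solyc07g065110.1 were highest in library 3. Solyc12g089360.1 and Solyc12g089370.1 were highest in library 2, but Solyc12g089380.1 beside them in library 3. Over all loci 8.82% were variable, and 16.0% of step-10 partners of a variable locus were, against 9.14% at a distance of 1000. Without library 1 the shares were 9.36% of partners and 2.24% of loci, where a range over 2 libraries is narrower by construction. Of the 83 neighbour pairs that were both variable, 48 (57.8%) were assigned to the same library in the same direction, against 32.8% of all pairs of variable loci.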

How the data were processed

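FPKM were computed by the authors, and every listed tomato id was found to have a mean of 3 or more. The tools recorded per the submitters' processing notes are CASAVA 1.8.2, TopHat2 2.0.9 and Cufflinks, whose roles the notes leave unstated. Annotation was Ensembl Release 19, SL2.4, and the library kit for hairs SMART-Seq v4, per the labels. How strand and reads of alike or overlapping genes were treated is not stated in these sources.

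The 6 sieved hair tables were used, and the 3 tables of sorted cells were not used. Columns were tied to samples by replicate number. Ranges over the 3 libraries were taken on log2(FPKM + 1). Neighbours were ids of one chromosome 10 numbers apart, and merged loci were ids of one chromosome with identical values. Species were compared by exact permutation. Steps were tested on simulated data, with Python 3.11.15, numpy 2.4.6, pandas 2.3.3, scipy 1.17.1 and matplotlib 3.10.9. Depth is unknown in absolute terms, so no counting intervals are given.

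Named genes were the 20 highest, the 10 steadiest and the 10 widest at a mean of 100 or more, the 10 highest variable genes, the 5 highest runs and the longest, ids at 0 in a library with a mean of 10 or more, and the id at the lower edge. Of the runs, the longest and the lower members are given by range. Other stretches and merged loci were chosen after their values were seen. The members, lists and rules were chosen with earlier results of these data known.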

Additional observations from a re-analysis of the deposited data

How the results depend on the processing

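Of 81 alternatives over 12 results, 58 counted as unchanged, by rules that differed between results. Counts had to stay within 1.5 times, and shares and level differences in tomato within the SD over libraries. Shares of variable neighbours had to stay within an exact binomial interval, which treats neighbours as independent. Species differences had only to keep their sign. With the 100 highest genes that from maize went from 0.867 to 6.52 percentage points, and that from cucumber from 0.137 to 2.82. The 100 highest genes held 33.5% of the FPKM. The count of variable ids was 626 with a pseudocount of 3 and 613 where means had to reach 10, and 289 to 809 when a library was left out, while that of steady ids was then 4490 to 5193. Ids with a neighbour numbered 4458 with the same minimum of 10. The level difference between neighbours was 1.57 with a pseudocount of 0.1 and 1.16 with that minimum. The share of high neighbours of high genes was 18.7% without chromosomes 10 and 12 and 22.0% to 22.9% without a library. That of variable neighbours of variable genes was 18.8% with a pseudocount of 0.1, 19.2% with that minimum and 9.36% to 15.0% without a library. With the 100 highest genes, tomato stood 9.06 percentage points above Arabidopsis and 2.18 above rice, which reversed both differences (-2.58 and -1.39 with the 10 highest), and the cause was not tested. The difference from cucumber was -0.0148 percentage points when genes were ranked within each library and -0.0519 to 0.453 when a tomato library was left out. With same-numbered libraries as pairs (replicate block), nothing pairs libraries of different species, and exact permutation p was 0.25 for Arabidopsis and soybean, the smallest 3 pairs allow, 0.75 for cucumber and 0.5 for maize and rice. Other differences kept their sign. Merged loci counted once and the neighbour shares were added after the data were seen, and low levels are limited by depth, which is known only as a ratio.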
